A study of Mus musculus with 4 samples.

Results

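The 9 factors described here were *Etv2*, *Tal1*, *Lmo2*, *Gata2*, *Fli1*, *Erg*, *Sox7*, *Sox17* and *Sox18*, chosen by gene symbol, and each matched 1 of the 32285 genes in the count matrices. They were followed in single cells of the *Tbx1* lineage of mouse embryos at E9.5, taken from the pharyngeal region from the first pharyngeal arch onwards together with the heart. All embryos carried Tbx1Cre/+, a Cre knock-in that leaves 1 working copy of *Tbx1*, and a GFP F/+ reporter that Cre switches on, with the strain labelled SwissWebster. According to the methods, the mice were kept on a mixed C57BL/6 and Swiss Webster background. The cHet embryos carried Kmt2d F/+ and the cKO embryos Kmt2d F/F, so that Cre removes 1 or both copies of *Kmt2d*, which encodes a histone H3 lysine methyltransferase, in the lineage. EGFP-positive, DAPI-negative cells were sorted and made into 3′ single-cell libraries. There were 2 replicates of each genotype: 4 embryos were pooled for each Rep1 library, made with the Next GEM kit, and 3 embryos for each Rep2 library, made with the GEM-X kit. Pooled embryos cannot be told apart, so the library was the unit of every test (n = 2 per genotype). Between genotypes, p-values rest on the spread of pools within replicates, with variances shared across genes. Between stages of maturity, they rest on how the difference varied over the libraries of both genotypes.

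Endothelial cells arise from mesoderm in which *Etv2*, an ETS factor switched on briefly, starts the vascular and blood programmes. *Tal1*, a basic helix-loop-helix factor, acts in a complex with the bridging protein *Lmo2* and GATA factors such as *Gata2*, and these genes are needed for blood and hemogenic endothelium. The ETS factors *Fli1* and *Erg* keep endothelial genes on after *Etv2* is lost, and the SoxF factors *Sox7*, *Sox17* and *Sox18* act in arterial, hemogenic and lymphatic endothelium. Hemogenic endothelium is the part of the endothelium from which blood cells bud. The *Tbx1* lineage gives rise to part of the endothelium of the pharyngeal arch arteries and the outflow tract, so the questions were in which order these factors were expressed as endothelial cells matured, and whether cKO differed from cHet.

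After filtering, 33448 cells were kept, with 5869 and 6291 in cHet and cKO Rep1 and 9350 and 11938 in cHet and cKO Rep2, and with a median of 17240.5 to 22972 UMIs per cell. Library totals ran from 179454146 to 234726019 UMIs. The endothelium was 1885 of these cells (424 and 272 in cHet and cKO Rep1, 525 and 664 in cHet and cKO Rep2), or 4.32% to 7.22% of a library. It was named from 14 endothelial markers without the 9 factors, and of these 14 passed in a cluster of 1601 cells (cluster 7) and 13 in a cluster of 284 cells (cluster 21). *Kmt2d* itself stood at 19.0 and 15.2 CPM in the endothelium of cHet and cKO Rep1 and at 21.3 and 22.2 CPM in Rep2. The 3′ tag can lie outside the deleted part, so this checks nothing about the genotypes. Some features of the libraries are given here beside the results. The deposited cHet Rep1 matrix held 37093 barcodes, against 9307 in cKO Rep1, 13192 in cHet Rep2 and 16775 in cKO Rep2. The paper's cell numbers equal those of cKO Rep1, cHet Rep2 and cKO Rep2 but are far lower for cHet Rep1. With a minimum of 1000 genes per barcode, the endothelium of cHet Rep1 held 1991 cells in place of 424, and the others held 298, 586 and 727. The matrices of cHet and cKO Rep1 shared 87 barcodes (12 among kept cells in both) and those of Rep2 shared 71 (41 among kept cells). The part of shared barcodes in the results was not tested. In cHet Rep1, 30 of the 79 cells of cluster 21 held no *Etv2* UMI, against 1 to 10 in the other libraries, and these 30 cells had a median of 9837.5 UMIs and stood at 75.5 CPM of *Prrx1* and 170 CPM of *Twist1*, both mesenchyme genes.

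In the mouse genome (GRCm38, GENCODE M21) the 9 factors lie on 8 chromosomes and all are protein-coding. *Etv2* lies at chr7:30633616-30635852 on the minus strand, *Tal1* at chr4:115056426-115071755 on the plus strand and *Erg* at chr16:95359169-95586593 on the minus strand. The other 6 lie at chr2:103957986-103981878 (*Lmo2*, plus), chr6:88193891-88207032 (*Gata2*, plus), chr9:32422204-32542861 (*Fli1*, minus), chr14:63943673-63950732 (*Sox7*, plus), chr1:4490931-4497354 (*Sox17*, minus) and chr2:181669836-181671640 (*Sox18*, minus). *Fli1* overlaps 5 gene models on its own strand, so its reads could have been shared with them. *Lmo2*, *Fli1* and *Sox17* also overlap annotated antisense genes, whose reads are kept apart where counting uses strand, as it does by default in Cell Ranger for 3′ libraries. The 250 bases before the transcription start (RefSeq, GRCm38.p6, 4 of the 9 factors matched) are shown, 5′ to 3′ on the gene's strand, for 3 factors with different courses in the endothelium: *Etv2* and *Tal1*, which were highest in the least mature cells, and *Erg*, which was lower there than in the most mature cells in 4 of 4 libraries. None of the 3 stretches overlaps an annotated exon of its own gene, and capitals mark a motif match. With 2 starts listed for *Tal1* and 3 for *Erg*, the stretch shown lies before the most upstream start.
Etv2, chr7:30635853-30636102, minus strand: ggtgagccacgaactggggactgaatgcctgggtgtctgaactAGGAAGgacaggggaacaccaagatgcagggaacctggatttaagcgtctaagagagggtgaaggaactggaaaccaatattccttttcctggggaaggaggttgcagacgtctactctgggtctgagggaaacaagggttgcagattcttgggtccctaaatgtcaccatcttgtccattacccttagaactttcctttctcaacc
Tal1, chr4:115056176-115056425, plus strand: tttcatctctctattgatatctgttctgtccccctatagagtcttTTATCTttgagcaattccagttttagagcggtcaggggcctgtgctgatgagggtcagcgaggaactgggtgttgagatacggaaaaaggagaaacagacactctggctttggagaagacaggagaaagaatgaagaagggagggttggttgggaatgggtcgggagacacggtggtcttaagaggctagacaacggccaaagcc
Erg, chr16:95586594-95586843, minus strand: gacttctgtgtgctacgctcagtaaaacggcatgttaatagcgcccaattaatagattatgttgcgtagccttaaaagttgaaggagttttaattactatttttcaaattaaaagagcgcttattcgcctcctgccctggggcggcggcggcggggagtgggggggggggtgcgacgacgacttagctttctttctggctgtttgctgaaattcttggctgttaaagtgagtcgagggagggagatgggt
Each motif was searched on both strands, and its share is that of the 32851 RefSeq promoters of this length. The ETS core AGGAAG, held by 29.5% of promoters, occurred once in the *Etv2* stretch, 207 bases before the start. The letters AGATAA, bound by GATA factors and held by 9.99% of promoters, occurred once in the *Tal1* stretch, on the other strand and 205 bases before the start. Neither the E-box CATCTG of *Tal1* complexes, held by 14.4% of promoters, nor the Sox core was in any of the 3 stretches. The Sox letters were ACAAT, which 27.7% of promoters held. The *Erg* stretch held none of the 4 motifs, which says only that these letters are not in this window.

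*Etv2* marked a minority of the endothelium. At least 1 UMI of *Etv2* was present in 36.3% of endothelial cells of cHet Rep1 (95% exact binomial interval 31.7 to 41.1), 36.0% of cKO Rep1 (30.3 to 42.0), 23.8% of cHet Rep2 (20.2 to 27.7) and 18.7% of cKO Rep2 (15.8 to 21.9). These intervals cover counting error only. The 2 Rep1 libraries were higher than the 2 Rep2 libraries. With each cell thinned to 5000 UMIs the shares were 17.5%, 13.97%, 12.8% and 13.3%, with cHet Rep1 still the highest. The intervals of all 4 then overlapped, which is no test of a difference, and the part of depth was not tested. For background, *Etv2* UMIs were found after thinning in 3.56% of neuronal cells (10 of 281) in cHet Rep1 and in none of 178 to 295 neuronal cells in the other 3 libraries. In epithelium the shares were 0.447% (2 of 447) in cHet Rep1 and 0 to 0.0911% in the others, and in mesenchyme 1.53% and 0.138% to 0.314%. Barcodes under 1000 genes, a proxy for free RNA, held 4.46 to 8.39 CPM of *Etv2*, and there were 14762 of them in cHet Rep1 against 1465 to 2763 in the others. Within the endothelium *Etv2* was concentrated in cluster 21, at 410 to 491 CPM over the 4 libraries against 5.92 to 24.9 CPM in cluster 7.

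To compare the factors, endothelial cells were put into 3 stages within each library. Etv2-positive cells held at least 1 UMI of *Etv2* (154, 98, 125 and 124 cells). Mature cells held none and had a mature endothelial score, the summed CPM of 14 junction, receptor and surface genes such as *Cdh5* and *Pecam1*, above the library's median (154, 100, 239 and 316 cells). Less mature cells held none and had a score at or below it (116, 74, 161 and 224 cells). Etv2-positive cells were not the least mature by this score in each library: their summed score was 3414 and 3529 CPM in cHet and cKO Rep1, above the 3106 and 3256 CPM of less mature cells, and 3840 and 3414 CPM in cHet and cKO Rep2, below the 4582 and 4476 CPM there. In what follows, 4 values in a row are first cHet and cKO of Rep1 and then cHet and cKO of Rep2, and CPM is the gene's UMIs per 1000000 UMIs of the summed cells. Because a stage is a group of cells, fewer cells with a transcript and fewer transcripts per cell cannot be told apart in a summed level. A cell with more UMIs is more likely to show *Etv2*, and Etv2-positive cells were deeper than mature cells, with a mean of 19552 to 29537 against 15143 to 24737 UMIs per cell. The 3 stages were compared with edgeR's quasi-likelihood test with the library as a block, calling adjusted p under 0.05. *Etv2* and the score genes made the stages and were not tested.

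Between Etv2-positive and mature cells, 5 of the 8 factors tested were higher in Etv2-positive cells (*Tal1*, *Lmo2*, *Sox17*, *Gata2* and *Fli1*) and none was lower, while 31.6% of all 11138 genes tested passed in either direction. The median log2 difference was 1.14 for *Tal1*, *Lmo2* and *Gata2*, 0.21 for the 3 SoxF genes and 0.06 for *Fli1* and *Erg*, beside 0.03 for all genes. *Tal1*, a core factor of blood and early endothelium, stood at 117, 129, 207 and 263 CPM in Etv2-positive cells, 29.3, 33.4, 57.8 and 59.2 CPM in less mature cells and 37.4, 34.4, 42.5 and 45.8 CPM in mature cells. Etv2-positive cells thus lay above both other stages in every library with no overlap, and the 2 Etv2-negative stages overlapped. The log2 difference from mature cells was 2.20 (SE 0.112, adjusted p = 4.34e-10), with 1.64, 1.92, 2.34 and 2.57 in the single libraries. *Tal1* UMIs were found in 69.5% to 91.9% of Etv2-positive cells and 47.2% to 51.0% of mature cells.

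*Lmo2*, which bridges *Tal1* and GATA factors, stood at 248, 233, 685 and 781 CPM in Etv2-positive cells, 179, 236, 361 and 333 CPM in less mature cells and 144, 163, 250.3 and 294 CPM in mature cells. Levels were higher in Rep2 than in Rep1 in every stage, and within 4 of 4 libraries Etv2-positive cells were above mature cells. The log2 difference was 1.14 (SE 0.139, adjusted p = 6.7e-06) and ran from 0.54 to 1.52 in the single libraries. Less mature cells were 0.43 above mature cells on the log2 scale (SE 0.143), in the same direction in 4 of 4 libraries, which did not pass (adjusted p = 0.0781) and did pass in 4 of 14 alternatives.

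*Gata2*, the GATA factor of blood progenitors, was low. Its values were 20.5, 16.6, 40.5 and 42.5 CPM in Etv2-positive cells, 10.7, 10.2, 23.7 and 21.3 CPM in less mature cells and 19.0, 18.2, 26.0 and 28.4 CPM in mature cells. The log2 differences between Etv2-positive and mature cells were 0.69 and 0.64 in the Rep2 libraries and 0.11 and -0.10 in the Rep1 libraries. The makeup of the Etv2-positive cells differed between replicates too, and its part in this gap was not tested. The fit gave 0.43 (SE 0.137, adjusted p = 0.0228), a call that held in 8 of 14 alternatives and was lost without cHet Rep2 (adjusted p = 0.239) or cKO Rep2 (adjusted p = 0.192). The call was also lost with DESeq2. With endothelial cells picked by 3 junction and surface genes instead of clusters the difference was 0.03 (adjusted p = 0.94). *Gata2* was lowest in less mature cells in 4 of 4 libraries, at a log2 difference of -0.42 from mature cells (SE 0.149, adjusted p = 0.101).

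*Fli1*, an ETS factor of all endothelium, stood at 402, 472, 714 and 831 CPM in Etv2-positive cells, 330, 383, 540 and 569 CPM in less mature cells and 380, 386, 601 and 664 CPM in mature cells. Its difference was small but in one direction in 4 of 4 libraries, at 0.09, 0.32, 0.32 and 0.39 on the log2 scale. The fit gave 0.28 (SE 0.0577, adjusted p = 0.00113), which was lost in 1 of 14 alternatives, the lower minimum of 1000 genes per barcode (adjusted p = 0.0981). *Erg*, the ETS factor that maintains junctions and quiescence, had a negative difference. It stood at 83.8, 99.5, 140 and 146 CPM in Etv2-positive cells, 81.8, 94.3, 179 and 163 CPM in less mature cells and 112, 103, 161 and 166 CPM in mature cells. Etv2-positive cells were below mature cells in 4 of 4 libraries, by -0.41, -0.02, -0.13 and -0.12 on the log2 scale, which did not pass (-0.17, SE 0.0837, adjusted p = 0.146). It passed with cells thinned to 5000 UMIs (-0.47) and with called doublets kept (-0.31), and with endothelial cells picked by genes it was 0.08. The thinned cells were staged anew, with 74, 38, 67 and 88 of them Etv2-positive.

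Among the SoxF genes, *Sox17*, a factor of arterial and hemogenic endothelium, was higher in Etv2-positive cells. It stood at 141, 155, 142 and 217 CPM there, 74.8, 80.1, 143 and 123 CPM in less mature cells and 84.4, 74.0, 114 and 143 CPM in mature cells. Every library was higher in Etv2-positive than in mature cells, by 0.74, 1.09, 0.39 and 0.66 on the log2 scale. The fit gave 0.71 (SE 0.115, adjusted p = 0.000118) and the call held in 14 of 14 alternatives, as did those of *Tal1* and *Lmo2*. *Sox7*, which is switched on early downstream of *Etv2*, stood at 32.2, 31.1, 60.0 and 63.5 CPM in Etv2-positive cells, 21.1, 29.4, 47.1 and 46.2 CPM in less mature cells and 29.5, 26.3, 55.9 and 54.96 CPM in mature cells. The Rep2 libraries were above the Rep1 libraries in every stage, and the fit gave 0.21 (SE 0.0959, adjusted p = 0.11). *Sox18*, known for arterial and lymphatic endothelium, stood at 117, 92.6, 151 and 237 CPM in Etv2-positive cells, 94.6, 85.0, 139 and 224 CPM in less mature cells and 125, 91.8, 164 and 271 CPM in mature cells. The spread between libraries was larger than that between stages, and cKO Rep2 was highest in each stage. The difference between Etv2-positive and mature cells was -0.06 (SE 0.0624, adjusted p = 0.479). Between less mature and mature cells *Sox18* was the 1 factor of 8 that passed, where 6.34% of all genes passed. Its difference was -0.22 (SE 0.0632, adjusted p = 0.0406), lower in 4 of 4 libraries, and DESeq2 did not call it. The score split these stages, so a lower value was favoured in advance for any gene that varies with the score genes. That call held in 6 of 14 alternatives and was lost without cHet Rep1, cHet Rep2 or cKO Rep2 (adjusted p = 0.137, 0.157 and 0.202).

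**Figure D1:**
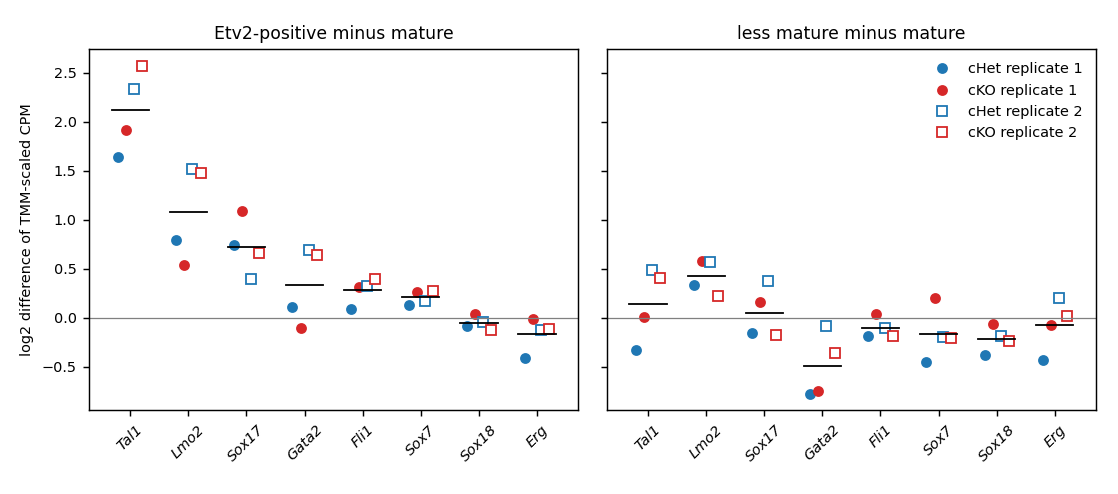
The log2 difference in TMM-scaled CPM of each factor (vertical axis) between Etv2-positive and mature cells (left) and between less mature and mature cells (right), with 1 point per library (filled for replicate 1, open squares for replicate 2, blue for cHet, red for cKO) and a bar at the mean of the 4 libraries. On the left *Tal1* runs from 1.64 to 2.57 and *Lmo2* from 0.54 to 1.52, while *Erg* runs from -0.41 to -0.02.

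An order by maturity came from cutting the endothelium of each library into 5 bins by the mature score, at percentiles 0 to 10, 10 to 25, 25 to 50, 50 to 75 and 75 to 100. This order used neither *Etv2* nor any of the other 8 factors. Genes that vary with the score genes still lean lower in the low bins by construction. *Etv2* fell most steeply, from 265 to 603 CPM in the lowest bin through 74.0 to 176, 11.9 to 41.4 and 10.3 to 34.4 CPM to 2.25 to 22.1 CPM in the highest. *Tal1* ran from 202 to 358 CPM in the lowest bin to 81.5 to 113, 46.6 to 68.8, 34.7 to 47.2 and 36.0 to 48.6 CPM. *Lmo2* ran from 295 to 964 CPM through 273 to 501, 194 to 386 and 169 to 336 to 126 to 238 CPM. These 3 genes had their highest bin at the lowest score in 4 of 4 libraries. *Tal1* was in about the same range in the last 2 bins, whereas *Lmo2* was lower in the highest bin than in the bin before it in each library.

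*Sox17* ran from 119 to 230 CPM in the lowest bin to 71.0 to 133 CPM in the fourth bin and 105 to 154 CPM in the highest, so it was higher again in the most mature cells of the 4 libraries. *Gata2* ran from 19.9 to 57.0 CPM in the lowest bin to 9.86 to 23.5 CPM in the third bin and 17.3 to 28.0 CPM in the highest. *Fli1* stood at 276 to 842 CPM in the lowest bin and 404 to 721 CPM in the highest. The lowest bin was the peak of each of these 3 genes in 3 of 4 libraries. *Erg* and *Sox18* were lower in the lowest bin than in the highest: *Erg* went from 27.6 to 111 CPM in the lowest bin to 106 to 176 CPM in the highest, and *Sox18* from 61.2 to 207 CPM to 99.5 to 286 CPM. The highest bin was the peak of *Sox18* in 3 of 4 libraries and of *Erg* in 2. *Erg* peaked in the third bin in cHet Rep2 and in the second in cKO Rep1, so above the lowest bin it had no common course. *Sox7* stood at 10.7 to 67.9 CPM in the lowest bin and 27.6 to 58.6 CPM in the highest, with no common course.

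Ordered by the log2 ratio of the lowest bin to the highest (CPM plus 5, mean over 4 libraries with SD), the factors ranked *Etv2* 5.12 (SD 1.31), *Tal1* 2.53 (SD 0.358), *Lmo2* 1.61 (SD 0.506), *Sox17* 0.49 (SD 0.459), *Gata2* 0.49 (SD 0.467), *Fli1* 0.02 (SD 0.40), *Sox7* -0.33 (SD 0.661), *Sox18* -0.60 (SD 0.337) and *Erg* -0.95 (SD 0.790). The ranges over libraries of *Etv2* (3.31 to 6.16) and *Tal1* (2.0 to 2.76) did not overlap, and those of *Tal1* and *Lmo2* (0.99 to 2.05) overlapped. From there on the ranges of every pair of neighbours overlapped. *Erg* and *Sox18* were negative in 4 of 4 libraries. The lowest bin of cHet Rep1 held 42 cells with a median of 10962 UMIs, against 18975 to 28824 in the other libraries, and it had the lowest *Erg*, *Fli1*, *Sox7* and *Sox18* of the 4. Its part in the result was not tested. Without it, the same ratios of *Erg* in the other 3 libraries ran from -0.89 to -0.20, and those of *Sox18* from -0.46 to -0.40. The other means also moved: *Gata2* was 0.71 and stood above *Sox17* (0.52), *Fli1* was 0.22 in place of 0.02, *Sox7* -0.0062 in place of -0.33 and *Erg* -0.58 in place of -0.95.

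**Figure D2:**
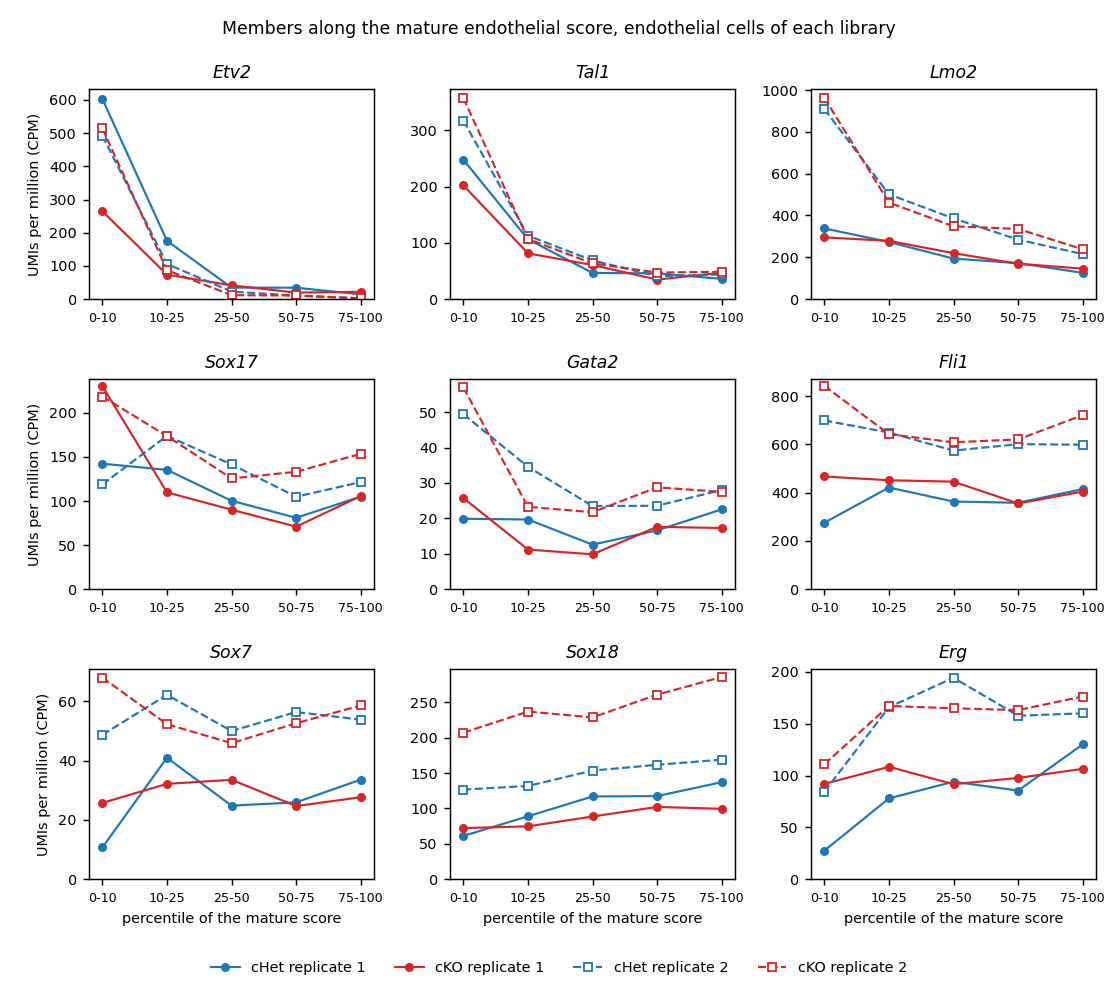
The level of each factor in CPM (vertical axis, from 0, its own scale for each gene) in 5 bins of the mature endothelial score (horizontal axis, percentile within the library), 1 line per library (solid for replicate 1, dashed for replicate 2, blue for cHet, red for cKO). *Etv2*, *Tal1* and *Lmo2* peak in the lowest bin in 4 of 4 libraries, and *Erg* and *Sox18* are lower there than in the highest bin.

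Among cells sorted by their own *Etv2* count, *Tal1* was higher in each further class in 3 of 4 libraries, and in cKO Rep2 in all but 1 (215 CPM at 2 UMIs and 211 CPM at 3 to 5). Summed over the 4 libraries it stood at 44.3 CPM in the 1384 cells with none, 56.4 CPM in the 190 with 1 UMI, 95.9 CPM in the 71 with 2, 151 CPM in the 80 with 3 to 5 and 360 CPM in the 160 with 6 or more. In those last cells it was detected in 98.8% of cells, and the single libraries ran from 337 to 378 CPM. *Lmo2* differed between replicates, so it was read within libraries. With no, 1 and 2 UMIs of *Etv2* it stood at 300.4, 354 and 364 CPM in cHet Rep2 and 312, 390 and 445 CPM in cKO Rep2, against 159, 177 and 142 CPM in cHet Rep1 and 198, 132 and 266 CPM in cKO Rep1, and in the last class it was 414 to 1085 CPM. The classes with few UMIs were thus higher than the class with none in both Rep2 libraries, with no such order in Rep1. Summed over libraries, *Sox17* went from 111 to 238 CPM, *Fli1* from 512 to 803 CPM and *Gata2* from 21.2 to 48.6 CPM between no UMI and 6 or more, in the same direction in 4 of 4 libraries. *Erg* went from 141 to 97.3 CPM, lower in 3 of 4 libraries and at 98.7 and 99.1 CPM in cKO Rep1, while *Sox18* stood at 164 and 159 CPM in these 2 classes. These are descriptions with no test, since depth enters the count classes.

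Across the 20 bin values (5 bins in 4 libraries, centred within each library on the log2 scale), the factors differed in which others they followed. *Etv2* had a Pearson r of 0.98 with *Tal1*, 0.96 with *Lmo2* and 0.64 with *Sox17*, and *Tal1* had 0.93 with *Lmo2*. *Erg* and *Sox18* had 0.80 with each other and -0.75 and -0.85 with *Etv2*. *Fli1* and *Sox7* had 0.80 with each other, and 0.26 and -0.16 with *Etv2*. The 20 points share 4 libraries and their depth, so the coefficients are descriptions. Of 6743 genes compared in this way, the 3 most alike to *Etv2* were *Colec12* (0.98), *H3f3b* and *Tiam1*, and those most alike to *Tal1* were *Dlk1* (0.99), *Hopx* and *Colec12*. For *Lmo2* they were *Uchl3* (0.97), *Hsp90aa1* and *Timm17a*. For *Erg* they were *Lcp1* (0.95), *Rab1a* and *Arhgap29*, and for *Sox18* *Stxbp5* (0.96), *Fgd5* and *Col18a1*. The closest matches were looser for *Gata2* (*Sf1*, *Crebbp* and *Tmem147*, 0.88 to 0.86), *Sox7* (*Dysf*, *Klhdc3* and *Ints8*, 0.85 to 0.82), *Sox17* (*Resf1*, *Btg3* and *Gstcd*, 0.83 to 0.81) and *Fli1* (*Rasgrp3*, *Tet3* and *Fam107b*, 0.83 to 0.81).

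Lists of other genes were read against the 31.6% of all genes that passed between Etv2-positive and mature cells, of which 1955 were higher and 1564 lower. Mature cells were chosen by a high score, so genes that vary with the score genes lean lower in other stages by construction. Of 16 other endothelial transcription factors, 3 were higher in Etv2-positive than in mature cells (*Hhex* 1.07, *Hey2* 1.00 and *Foxc2* 0.97 on the log2 scale) and 6 were lower, led by *Klf2* (-1.10), a factor induced by blood flow, *Foxo1* (-0.58) and *Ets1* (-0.58), with a list median of -0.16. Of 7 partners of *Tal1* and *Lmo2* tested, none was higher and 2 were lower, the corepressor *Cbfa2t3* (-0.58) and the E-protein *Tcf4* (-0.22), at a median of -0.02, a share near the background. Of 12 hemogenic and blood genes 5 passed the filter on low counts, and 2 of them were lower, *Cd44* (-0.68) and *Mecom* (-0.52). In the whole endothelium *Runx1*, the defining factor of hemogenic endothelium, stood at 0.788 to 2.94 CPM (56 UMIs in all), *Ptprc*, the pan-leukocyte gene, at 0, *Gata1* at 0 to 0.131 CPM, *Spi1* at 0.394 to 0.811 CPM and *Gfi1* at 0 to 0.0893 CPM, while *Kit* stood at 38.5 to 55.2 CPM and *Mecom* at 108 to 325 CPM. *Runx1*, *Ptprc*, *Gata1*, *Spi1* and *Gfi1* were therefore at or near 0 beside the high *Tal1* and *Lmo2*.

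Of 8 receptors and adaptors of endothelial signalling, 6 were lower in Etv2-positive cells, including *Robo4* (-1.72), *Notch4* (-1.14) and *Flt1* (-0.67), and 1 was higher (*Rhoj*, 0.23), at a median of -0.47. Of the arterial genes, 8 of 12 were lower and none was higher (median -0.71), led by the connexins *Gja5* (-3.63) and *Gja4* (-1.98) and *Vegfc* (-1.40). Of 7 venous genes 4 were lower and none higher (median -0.41), led by *Stab2* (-2.59), *Aplnr* (-1.32) and *Dab2* (-0.75). Of 7 endocardial genes, 2 were higher (*Tmem108* 1.96 and *Hapln1* 0.57) and 1 was lower (*Npr3* -1.19), at a median of 0.16. Between less mature and mature cells, where 6.34% of all genes passed (383 higher and 323 lower), less mature cells had 8 of 12 arterial genes, 5 of 8 receptors and 3 of 7 venous genes lower, with none higher, 3 endocardial genes higher and 1 lower, and none of the hemogenic genes past the threshold. The median log2 differences were -0.98, -0.40, -0.26, 0.25 and -0.52 for these 5 lists. The score split these stages, so lower values of genes that vary with the score genes were favoured in advance in less mature cells. Of the other factors *Hey1* and *Elk3* were lower there, and of the partners *Lmo4* was higher (medians -0.13 and -0.07).

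Genes of other cell types moved with the Etv2-positive stage. Of 3 mesenchyme markers tested 2 were higher in Etv2-positive cells (*Prrx2* 2.22 and *Twist1* 1.10), of 5 cardiac muscle markers 2 (a share near the 31.6% of all genes; *Tnni1* 3.94 and *Myl7* 1.22) and of epithelium 1 of 1 (*Krt18* 2.75), while the 1 erythroid gene tested, *Hbb-y*, was lower (-1.09). Between less mature and mature cells *Prrx2*, *Twist1* and *Tnni1* were higher, and the epithelial and erythroid genes did not pass. The summed level of the 6 mesenchyme markers was 68.1 to 114 CPM in Etv2-positive cells, 45.4 to 119 CPM in less mature and 37.8 to 44.1 CPM in mature cells. For the 8 cardiac muscle markers it was 28.7 to 104, 14.7 to 29.3 and 6.06 to 24.4 CPM, for the 7 epithelial markers 8.10 to 15.3, 2.67 to 35.1 and 0.634 to 5.94 CPM and for the 7 erythroid markers 4.86 to 15.7, 5.34 to 20.6 and 7.31 to 29.8 CPM. The part of these other cell types in the differences between stages was not tested. *Tal1* itself stood at 4.61 CPM or less in every named cell type outside the endothelium.

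Between cKO and cHet, none of the 9 factors passed in the whole endothelium with edgeR's quasi-likelihood test and the replicate as a block, where 0.100% of 12947 genes passed. At an unadjusted p under 0.05 there were 2 factors (*Etv2* and *Fli1*), and DESeq2 called none. Values from here on are TMM-scaled CPM. *Etv2* stood at 103, 71.3, 73.8 and 69.9, from 826, 470, 937 and 899 UMIs. The cHet Rep1 library was the highest and the other 3 were alike, so the log2 difference of cKO from cHet was -0.53 in Rep1 and -0.08 in Rep2, and -0.29 in the fit (SE 0.0960, adjusted p = 0.557). It passed in 1 of 13 alternatives, with called doublets kept (-0.30, adjusted p = 0.0341). The share of endothelial cells with an *Etv2* UMI had overlapping counting intervals in cHet and cKO within each replicate, and 2 against 2 libraries cannot reach p = 0.05 in an exact permutation test.

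The hemogenic factors were close between genotypes in the whole endothelium. *Tal1* stood at 76.3, 81.0, 81.6 and 85.0 TMM-scaled CPM, *Lmo2* at 222, 244, 356 and 360, and *Gata2* at 19.99, 17.6, 25.6 and 25.2. For *Lmo2* the gap between replicates was far larger than that between genotypes. The log2 differences in Rep1 and Rep2 were 0.08 and 0.06 for *Tal1*, 0.13 and 0.01 for *Lmo2* and -0.18 and -0.02 for *Gata2*, with adjusted p = 1 in the fit for all 3. In Etv2-positive cells, none of 8 factors passed (3 at an unadjusted p under 0.05, none by DESeq2) where 0.0367% of 10913 genes passed. *Tal1* stood there at 135, 149.5, 182 and 231, higher in cKO in both replicates by 0.15 and 0.34 on the log2 scale (0.25 in the fit, SE 0.0938, adjusted p = 0.815). This direction was lost with cells thinned to 5000 UMIs and staged anew, at -0.020. Without cKO Rep2 the difference was -0.083. That fit also had no replicate block, so cKO Rep1 was set against the cHet libraries of Rep1 and Rep2. Cluster 21, where *Etv2* was concentrated, made up 49 of 154, 27 of 98, 72 of 125 and 86 of 124 of the Etv2-positive cells, and the part of this makeup in the genotype values of these cells was not tested. In the same cells *Lmo2* stood at 285, 269, 602 and 684 and *Gata2* at 23.6, 19.2, 35.6 and 37.2, both below cHet in Rep1 and above it in Rep2.

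Of the ETS factors, *Fli1* was higher in cKO in both replicates, at 430, 482, 536 and 580 TMM-scaled CPM in the whole endothelium. The log2 differences were 0.16 and 0.11 (0.14 in the fit, SE 0.0616, adjusted p = 0.911). Without cKO Rep2 the difference was -0.0060, in a fit that also had no replicate block. In Etv2-positive cells *Fli1* stood at 462, 546, 628 and 728, with log2 differences of 0.24 and 0.21 (0.23 in the fit, SE 0.0679, adjusted p = 0.556). These differences were alike in the 2 replicates but did not pass. *Erg* stood at 107, 114, 141 and 140 in the whole endothelium and at 96.3, 115, 123 and 128 in Etv2-positive cells, with log2 differences of 0.10 and -0.01 and of 0.26 and 0.06 in Rep1 and Rep2.

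Among the SoxF genes, *Sox7* stood at 32.5, 33.5, 47.4 and 46.7 TMM-scaled CPM in the whole endothelium, and cKO and cHet of a replicate differed by 0.04 and -0.02 on the log2 scale. *Sox17* stood at 119, 123, 115 and 132 in the whole endothelium (log2 differences of 0.05 and 0.20). In Etv2-positive cells *Sox17* stood at 162, 179.5, 125 and 190.0, with log2 differences of 0.15 and 0.60 and 0.38 in the fit (SE 0.110, adjusted p = 0.534). Counting cells as Etv2-positive from 2 UMIs on, this difference was 0.55 and passed (adjusted p = 0.00514), the 1 of 15 alternatives in which it did. Of the 15, the 1 score threshold for all libraries leaves the Etv2-positive cells unchanged and repeats the main result. *Sox18* moved in opposite directions in the replicates. In the whole endothelium it stood at 131, 104, 133 and 215, with 1045, 686, 1685 and 2764 UMIs, so cKO was lower in Rep1 by -0.33 and higher in Rep2 by 0.69 on the log2 scale. The cKO libraries were the lowest and the highest of the 4, and the fit gave 0.24 (SE 0.140, adjusted p = 1). The same was seen in Etv2-positive cells, at 135, 107, 132 and 208, and in mature cells, at 146, 106, 142 and 237. In cKO Rep2 *Sox18* was above cHet Rep2 in 5 of 5 score bins, and in cKO Rep1 it was below cHet Rep1 in 4 of 5.

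In mature cells none of 8 factors passed, and 0% of 11238 genes did (387 genes and 1 factor at an unadjusted p under 0.05, and none by DESeq2). *Lmo2* was higher in cKO in both replicates, at 168, 188, 217 and 256 TMM-scaled CPM. The log2 differences were 0.16 and 0.24 (0.21 in the fit, SE 0.0821, adjusted p = 1). Without cKO Rep2 the difference was -0.032, in a fit that also had no replicate block. *Sox17* stood at 98.5, 85.3, 98.5 and 125, lower in cKO in Rep1 and higher in Rep2, and *Tal1* at 43.7, 39.6, 36.8 and 39.9. The difference in the genotype effect between Etv2-positive and mature cells was tested as an interaction, in which 0.130% of 11520 genes and none of the 8 factors passed (1 factor at an unadjusted p under 0.05, none by DESeq2). The largest was *Sox17*, at 0.30 (SE 0.124, adjusted p = 0.66), then *Tal1* at 0.25 (adjusted p = 0.893), while *Sox18* was at 0.00089. With cells thinned, *Tal1* was -0.17.

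**Figure D3:**
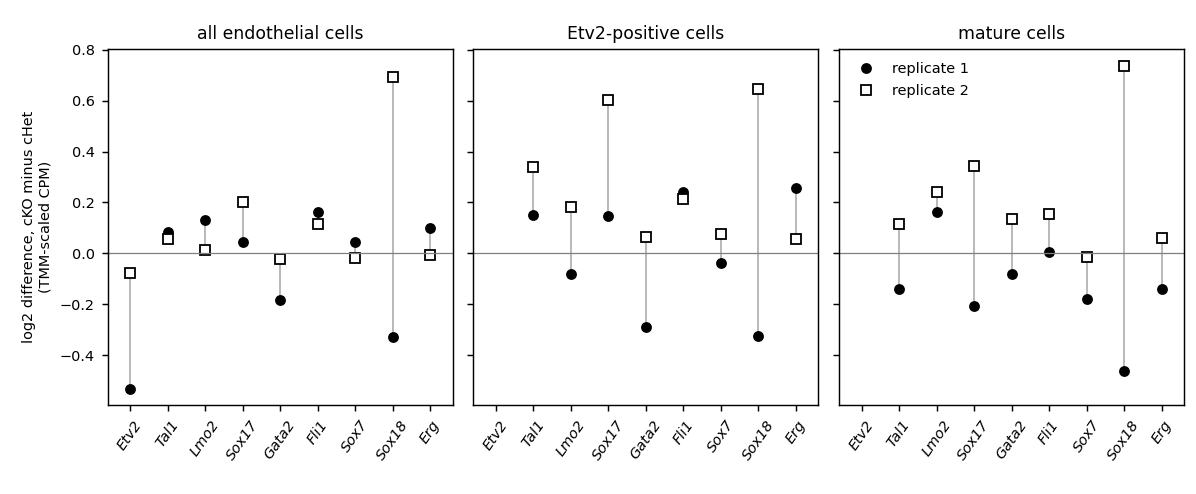
The log2 difference of TMM-scaled CPM between cKO and cHet within each replicate (vertical axis; filled circles for replicate 1, open squares for replicate 2, joined by a line) for each factor in all endothelial cells, Etv2-positive cells and mature cells. *Sox18* spans -0.33 to 0.69 in all endothelial cells, and *Etv2*, which made the stages, is shown in the first panel alone.

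Of the lists of other endothelial, blood, arterial, venous and endocardial genes and of markers of other cell types, 1 gene passed between genotypes: *Mecom*, a zinc-finger factor of blood stem cells and arterial endothelium, was higher in cKO in Etv2-positive cells by 1.02 on the log2 scale (SE 0.117, adjusted p = 0.00218). It had this direction in 15 of 15 alternatives (0.53 to 1.53). With 1 score threshold for all libraries the Etv2-positive cells stay the same, so that fit repeats the main result. *Mecom* passed in 7 of the 15, that fit included. It was lost without a replicate block, with a minimum of 1 count, with 1000 genes per barcode, with cells thinned and without any 1 of the 4 libraries (adjusted p from 0.94 to 1). In the interaction *Mecom* (0.90), *Hey1* (1.08) and *Efnb2* (0.65) passed, each with a more positive cKO effect in Etv2-positive than in mature cells and in the same direction in 14 of 14 alternatives. *Mecom* and *Hey1* passed in 9 of these and *Efnb2* in 7, and all 3 were lost with DESeq2, with cells thinned and without cHet Rep1, cKO Rep1 or cHet Rep2. Without these 3 libraries in turn *Mecom* was 1.17, 0.66 and 0.60, *Hey1* 1.44, 0.57 and 0.30 and *Efnb2* 0.83, 0.38 and 0.48. The interaction fits without 1 library also had no stage-by-replicate term, which the main fit had. With DESeq2 and with cells thinned *Mecom* was 0.90 and 0.26, *Hey1* 1.195 and 1.07 and *Efnb2* 0.67 and 0.67. Over all alternatives *Mecom* ran from 0.26 to 1.36, *Hey1* from 0.30 to 2.22 and *Efnb2* from 0.38 to 0.97. The medians of lists with at least 5 genes tested ran from -0.61 to 0.12 in the whole endothelium, from -0.26 to 0.25 in Etv2-positive cells, from -0.04 to 0.19 in mature cells and from -0.29 to 0.38 in the interaction, beside all-gene medians of -0.0046, 0.0007, -0.00088 and 0.0047.

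Some markers of other cell types had lower values in the cKO endothelium, beside the *Etv2* difference of -0.29. The lowest list median, -0.61, was that of 6 cardiac muscle markers (*Tnnt2* -0.78, *Myl7* -0.74, *Myl4* -0.71 and *Tnni1* -0.52 on the log2 scale), and 5 mesenchyme markers had a median of -0.32 (*Prrx2* -0.50 and *Twist1* -0.32). None of these genes passed. The summed level of all 8 cardiac muscle markers was 35.3, 17.2, 43.2 and 38.7 CPM, that of the 6 mesenchyme markers 86.2, 53.6, 69.9 and 65.2 CPM and that of the 7 epithelial markers 13.7, 5.12, 6.40 and 6.52 CPM. The 7 erythroid markers summed to 18.6, 8.14, 6.76 and 19.4 CPM. In Rep1 all 4 sums were lower in cKO, and in Rep2 the cardiac and mesenchyme sums were slightly lower, the epithelial sums were alike and the erythroid sum was higher. From 1 to 2 of the cardiac, 0 to 1 of the epithelial and 2 to 3 of the erythroid markers were at 0 in a library. The part of these cells in the genotype values was not tested.

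Outside the endothelium the factors differed in how closely they kept to it, and levels below are CPM over all cells of a type, described without a test because the types are clusters of the same cells. *Erg* stood at 1.84 CPM or less, *Sox7* at 0.823 or less and *Sox18* at 0.793 or less in every other named type, against 92.9 to 161, 28.3 to 54.2 and 90.1 to 247 CPM in the endothelium. *Sox17* reached 4.16 to 10.6 CPM in endoderm-like epithelium, a tissue in which it has a known role, and *Gata2* 5.35 to 8.75 CPM in otic vesicle-like epithelium. *Fli1* was broad: it stood at 183 to 272 CPM in mesenchyme and 73.6 to 97.96 CPM in the multilineage primed progenitors (MLPs), against 375 to 667 CPM in the endothelium. In the 12146 cells of clusters left unnamed by the markers it was higher than in mesenchyme, at 220 to 328 CPM. *Lmo2* stood at 47.6 to 105 CPM in cardiac muscle, 12.3 to 56.8 CPM in the anterior second heart field (aSHF) and 7.95 to 27.1 CPM in branchiomeric muscle progenitors (BrM), against 194 to 413 CPM in the endothelium.

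*Etv2* UMIs were found outside the endothelium too. In cHet Rep1 *Etv2* stood at 17.7 CPM in MLPs, 19.3 CPM in BrM and 6.06 CPM in the aSHF, against 11.4 CPM in neuronal and 12.3 CPM in otic cells. With cells thinned to 5000 UMIs its shares there were 3.41%, 3.54% and 2.32%, below the 3.56% of neuronal cells and above those of the other types named here, at 0.447% in epithelium, 0.730% in the posterior second heart field (pSHF), 1.28% in cardiac muscle and 1.53% in mesenchyme. Types that should lack *Etv2* thus differed in this library, and the part of free RNA in its values was not tested. In the other 3 libraries *Etv2* stood at 4.34 to 9.39 CPM in MLPs, 1.62 to 9.62 CPM in BrM and 3.58 to 5.22 CPM in the aSHF, against 0 to 0.660 CPM in neuronal and 0 to 0.194 CPM in otic cells.

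In a class chosen after its values were seen, 33 MLPs held 3 or more *Etv2* UMIs (12, 4, 8 and 9 in the 4 libraries), and no UMI of *Cdh5* was found in them. *Tal1* stood there at 128, 164, 6.87 and 141 CPM, *Lmo2* at 244, 196, 137 and 415 CPM and *Kdr*, the VEGF receptor gene of early vascular mesoderm, at 400, 425, 955 and 1105 CPM. In the 3322 MLPs with no *Etv2* UMI, summed over libraries, the 3 genes stood at 0.303, 2.24 and 27.01 CPM. In each library *Lmo2* and *Kdr* stood above these values, while a single *Tal1* UMI was found in cHet Rep2. Of 37 *Sox17* UMIs in this class 34 came from cHet Rep1, and without that library *Sox17* stood at 7.91 CPM in place of 52.3 CPM.

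In BrM, 32 such cells (11, 1, 11 and 9) also held no *Cdh5* UMI. *Lmo2* stood at 140, 0, 413 and 111 CPM and *Kdr* at 248, 124, 692 and 321 CPM, against 16.6 and 9.31 CPM in the 3147 BrM cells with no *Etv2* UMI. *Tal1* rested on cHet Rep1, with 33 of 40 UMIs, none in cKO Rep1 or cHet Rep2 and 7 in cKO Rep2, and stood at 46.7 CPM over the 4 libraries and 14.9 CPM without cHet Rep1. In 10 such aSHF cells *Lmo2* stood at 65.4, 105, 413 and 996 CPM and *Tal1* was seen with 8 UMIs in all. *Erg*, *Sox7* and *Sox18* stood at 8.17 CPM or less in the MLP and BrM cells of this class, summed over libraries.

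**Figure D4:**
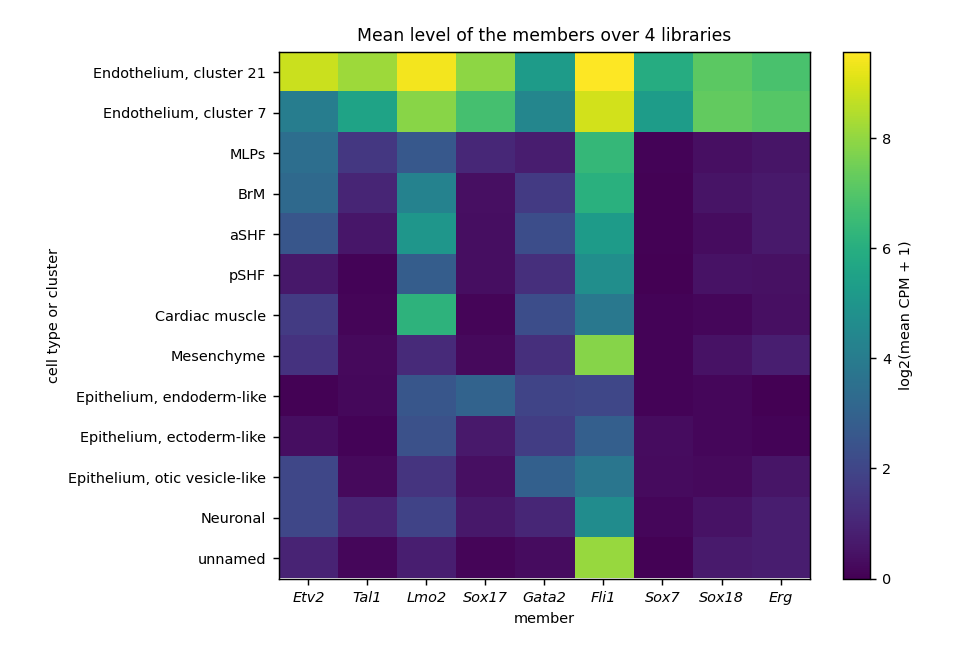
The mean level of each factor over the 4 libraries (colour, log2 of mean CPM plus 1) by cell type or cluster (vertical axis) and factor (horizontal axis). The 2 endothelial clusters hold the highest level of each factor. *Fli1* extends to unnamed clusters and mesenchyme, and *Lmo2* to cardiac muscle.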

How the data were processed

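Single cells of 4 libraries were measured. Per the labels and file headers, the authors made the deposited UMI count matrices with Cell Ranger (8.0.1 in the processing notes, 7.0.1 in the headers of the Rep1 matrices) against mm10, with no normalization. The 9 factors, the gene lists and the tests were chosen with earlier results of these data known. Barcodes with at least 3000 genes, at most 10% mitochondrial and at most 5% hemoglobin UMIs were kept, and the 361, 359, 393 and 637 barcodes at or above the Scrublet score that marks the share expected from the kit, for cHet and cKO Rep1 and then cHet and cKO Rep2, were removed as doublets. Scrublet's own threshold marked 0.0320% and 0.0150% of Rep1 barcodes, so it was not used. Cells were clustered with scanpy 1.11.5 (2000 variable genes, 30 components, 20 neighbours, resolution 0.8, seed 0) without the 9 factors, after the components of the 2 replicates were aligned by soft clusters with a shift per replicate, and clusters were named from markers. A marker passed at a 2-fold higher level in the cluster, in at least 10% of its cells.

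UMI counts were summed per library and stage, and endothelial sums held 7615756 to 11193816 UMIs. They were tested with edgeR 4.0.16 (quasi-likelihood, TMM scaling, filterByExpr, Benjamini-Hochberg over all genes tested) in R 4.3.3. DESeq2 1.42.0 was an alternative, with other size factors, count minimums, cell filters, gates, stages and left-out replicates. Where cells were thinned, the stages were made anew from the thinned counts, so fewer cells were Etv2-positive. The gate took cells with at least 2 of *Pecam1*, *Cdh5* and *Cldn5* and at most 1 UMI of *Epcam*, *Tnnt2* and *Prrx1* together. The named genes were the 9 factors in every comparison and, of the lists, those past the threshold, or the 3 with the largest change where more passed. The scripts were tested on simulated data.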

Additional observations from a re-analysis of the deposited data

Results flagged for a closer look

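The log2 difference of *Sox18* between cKO and cHet had opposite signs in the 2 replicates, at -0.3272 in Rep1 and 0.6939 in Rep2 in the whole endothelium, -0.3267 and 0.6467 in Etv2-positive cells, and -0.4609 and 0.7379 in mature cells. The difference between the replicates was not tested. Replicate and kit coincide and cannot be told apart.

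In 31 barcodes left out for more than 5% hemoglobin UMIs (8, 11, 0 and 12 in the libraries), *Tal1* had 88 UMIs in 28 barcodes (90.3%) and *Lmo2* had 51 UMIs in 26 (83.9%), above the 3 counts that a count of 0 allows. In the same barcodes *Gata2* had 1 UMI, *Fli1* had 11 UMIs in 3 barcodes, and *Etv2*, *Erg*, *Sox7*, *Sox17* and *Sox18* had none. *Tal1* and *Lmo2* are known to be expressed in erythroid cells.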

How the results depend on the processing

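*Tal1*, *Lmo2* and *Sox17* kept their call as higher in Etv2-positive than in mature cells in 14 of 14 alternatives. With 2 libraries per genotype a factor that missed the threshold is not shown to be alike in cKO and cHet. Causes of the moves below were not tested.

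Genes called between genotypes numbered 13 in the whole endothelium, 4 in Etv2-positive and 0 in mature cells. They were 76, 7 and 1 with RLE size factors, 90, 0 and 22 with a minimum of 1 count, 2, 2 and 0 with DESeq2, 0, 1 and 5 with 1000 genes per barcode, 12, 20 and 5 with no hemoglobin maximum, 109, 88 and 24 with doublets kept, 30, 1 and 7 with cells thinned, and 45, 9 and 23 with the gate. From 2 *Etv2* UMIs on they were 59 and 24 in the stages, and with 1 score threshold for all libraries 4 and 7. That threshold leaves the Etv2-positive cells unchanged, so the 4 repeats the main count. The replicate numbers pair the libraries by kit, and deviations from the genotype means correlated at 0.792, 0.749 and 0.772 over genes, with 2 pairs. With no replicate block 0, 0 and 0 genes were called. Genotype fits that left out 1 library had no replicate block either, and in the interaction no stage-by-replicate term. Leaving out 1 library gave 0 to 0, 0 to 1 and 0 to 0.

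Between Etv2-positive and mature cells 3519 genes were called, and 2173 with DESeq2, 1779 with 1000 genes per barcode, 1820 thinned, 2198 with the gate and 2097 (without cHet Rep2) to 3349 without 1 library. Between less mature and mature cells 706 were called, and 1086 with a minimum of 1 count, 464 with DESeq2, 21 with 1000 genes per barcode, 1944 with doublets kept, 467 thinned, 1263 with the gate, 1202 with 1 score threshold and 214 (without cHet Rep2) to 563 without 1 library. In the interaction 15 were called, and 26 with a minimum of 1 count, 0 with DESeq2, 38 with no hemoglobin maximum, 42 with doublets kept, 1 thinned, 49 with the gate, 54 from 2 *Etv2* UMIs on, 37 with 1 score threshold and 0 to 19 without 1 library. The *Etv2* shares thinned to 17.5%, 13.97%, 12.8% and 13.3%.

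No called difference of a factor changed sign. These uncalled ones did. In the whole endothelium *Gata2* was 0.075 with 1000 genes per barcode, and *Sox7* was -0.0030 with no hemoglobin maximum and -0.026 with the gate. In Etv2-positive cells *Tal1* was -0.020 thinned and *Sox7* -0.12 with the gate. In mature cells *Tal1* was -0.0075 with DESeq2 and -0.013 with no replicate block, *Erg* was 0.071 with 1000 genes per barcode, 0.12 thinned, 0.023 with the gate and 0.0087 from 2 *Etv2* UMIs on, *Sox7* was 0.076 with 1000 genes per barcode and 0.10 thinned, and *Gata2* was -0.35 thinned and -0.028 with 1 score threshold. Between Etv2-positive and mature cells the gate gave *Erg* 0.083 and *Sox18* 0.021. Between less mature and mature cells *Sox17* was -0.075 with 1000 genes per barcode, -0.11 with doublets kept and -0.17 thinned, and *Tal1* was -0.0067 with doublets kept. In the interaction *Sox18* was -0.025 with a minimum of 1 count, -0.0083 with 1000 genes per barcode, -0.0019 with no hemoglobin maximum, -0.051 with doublets kept and -7.6e-05 with the gate, *Tal1* was -0.17, *Lmo2* 0.13 and *Gata2* 0.071 thinned, *Gata2* was 0.0084 with 1 score threshold, and *Sox7* was -0.078 with the gate.

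Leaving out 1 library at a time assumed that the lone library of a genotype varies like the others. These fits also had no replicate block for genotype and no stage-by-replicate term in the interaction, so the gap between kits entered them. The comparisons between stages kept the library block. Ranges of the log2 difference are given where a sign changed. In the whole endothelium they were *Lmo2* -0.25 to 0.45, *Erg* -0.13 to 0.26, *Sox7* -0.26 to 0.31, *Gata2* -0.38 to 0.15, *Fli1* -0.0060 to 0.31 and *Sox18* -0.34 to 0.72. In Etv2-positive cells they were *Lmo2* -0.72 to 0.74, *Erg* -0.018 to 0.33, *Sox7* -0.32 to 0.31, *Gata2* -0.63 to 0.33, *Tal1* -0.083 to 0.54 and *Sox18* -0.32 to 0.64. In mature cells they were *Fli1* -0.11 to 0.27, *Tal1* -0.13 to 0.11, *Erg* -0.19 to 0.10, *Sox7* -0.46 to 0.21, *Lmo2* -0.032 to 0.42, *Gata2* -0.092 to 0.15, *Sox17* -0.20 to 0.35 and *Sox18* -0.44 to 0.72. Between less mature and mature cells they were *Erg* -0.15 to 0.058 and *Sox17* -0.083 to 0.17, and in the interaction *Tal1* -0.11 to 0.67, *Lmo2* -0.64 to 0.25, *Gata2* -0.57 to 0.25 and *Sox18* -0.10 to 0.11.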
